A study of Mus musculus with 5 samples.

Results

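The class I antigen presentation genes B2m, H2-K1, H2-D1, H2-T23, Tap1, Tap2 and Tapbp were followed in 5 mouse cell cultures, each measured on 1 Affymetrix expression array. The probe sets were all those that the array annotation lists under any of these 7 symbols. They are 7 of the 8949 genes that the annotation names, and their probe sets are 17 of 12488, of which 13 are listed for 1 gene and 4 for several. After a filter on low values, which kept probe sets whose highest intensity exceeded 21.8, 16 of the 17 remained, and 9107 probe sets were tested in all. Proteasome subunits, which cut the peptides, are not included.

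A class I molecule is a polymorphic heavy chain, encoded in the mouse by H2-K1 and H2-D1, bound to the invariant light chain beta-2 microglobulin (B2m) and to a short peptide. H2-T23 encodes Qa-1, a less polymorphic heavy chain that is read by inhibitory receptors of natural killer cells. Peptides made in the cytosol enter the endoplasmic reticulum (ER) through the transporter TAP, a dimer of the Tap1 and Tap2 products, and tapasin (Tapbp) holds an empty class I molecule at the transporter until a well-fitting peptide is bound. Nearly all nucleated cells present peptides in this way, B cells and plasma cells included.

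Of the cultures, 4 derive from the mouse line AxJ, which stands for the plasma cell, the stage that secretes antibody. These were stable transfectants with empty vector (1 array), overexpressing hnRNP-H (1 array) or overexpressing hnRNP-F (2 arrays, subclones B5 and D6). hnRNP-F and hnRNP-H are related RNA-binding proteins, and the transfectants were picked as clones with high protein by western blot. The other culture is the mouse line A20, whose label calls it a memory B cell line. All cultures were in log phase without further treatment, but the medium of the AxJ lines held the selection drug G418 and that of A20 did not, so line and drug cannot be told apart. No label gives the transfected promoter, and nothing describes repeated cultures. The series' title concerns the transcription elongation factor ELL2, and its design names empty vector and hnRNP-H as controls of the hnRNP-F clones.

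Median deposited intensities lay between 33.9 and 41.7. Gapdh control probe sets read both ends of the transcript, and their 5' over 3' ratio, which falls when RNA is degraded or labelling is incomplete, was low for empty vector (0.212) and B5 (0.181), high for hnRNP-H (0.866) and D6 (0.683) and intermediate for A20 (0.384). Of the B cell markers tested, 8 of 13 rose and 0 fell in A20 against the AxJ controls (adjusted p under 0.05 in limma), while of the plasma cell markers 0 of 11 rose and 8 fell. The summed level of the plasma cell markers was 19826 to 26774 in the AxJ lines and 3872 in A20, and that of the B cell markers 2316 to 4398 and 12477. Summed levels of the other lists did not exceed the AxJ range in A20, at 33.7 to 66.1 against 34.0 for the 1 T cell marker tested, 222 to 421 against 197 for myeloid, 464 to 669 against 359 for stromal and 88.9 to 165 against 135 for erythroid markers. No T cell, myeloid, stromal or erythroid marker passed the test, and no marker is listed at 0. In bulk RNA, fewer cells with a transcript and less transcript per cell cannot be told apart.

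The upstream sequence of several of these genes is shown as description, and its part in their levels was not tested. The windows hold the 250 bases before the annotated start, 5' to 3' on the strand of the gene, from RefSeq on build GRCm38.p6. Capitals mark, on either strand, a site form of NF-kB (the first run of capitals in H2-K1 and H2-D1), the core of the interferon-stimulated response element (the first run in B2m), GAANNGAAA, a shorter form of that core which was added after the sequences had been seen, and CCAAT (the NF-Y box). B2m lies at chr2:122147437-122147686 on the plus strand, H2-K1 at chr17:34000334-34000583 on the minus strand (of 2 listed starts, the one furthest along the gene), H2-D1 at chr17:35262844-35263093 on the plus strand, Tap1 at chr17:34187306-34187555 on the plus strand and Tapbp at chr17:33919228-33919477 on the plus strand.
B2m: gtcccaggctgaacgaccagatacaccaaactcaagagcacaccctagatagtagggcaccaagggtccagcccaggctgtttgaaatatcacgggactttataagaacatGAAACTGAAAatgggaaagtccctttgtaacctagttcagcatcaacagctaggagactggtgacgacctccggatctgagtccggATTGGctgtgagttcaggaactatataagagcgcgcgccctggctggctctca
H2-K1: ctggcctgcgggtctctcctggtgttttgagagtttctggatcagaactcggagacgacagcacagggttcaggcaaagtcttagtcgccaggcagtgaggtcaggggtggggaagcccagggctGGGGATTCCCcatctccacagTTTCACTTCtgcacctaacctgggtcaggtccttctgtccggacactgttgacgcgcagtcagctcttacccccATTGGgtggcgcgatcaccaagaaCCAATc
H2-D1: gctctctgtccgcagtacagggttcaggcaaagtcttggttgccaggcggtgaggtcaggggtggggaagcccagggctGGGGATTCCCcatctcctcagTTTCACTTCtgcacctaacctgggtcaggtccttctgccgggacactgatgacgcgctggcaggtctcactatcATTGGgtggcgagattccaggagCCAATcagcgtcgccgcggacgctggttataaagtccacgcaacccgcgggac
Tap1: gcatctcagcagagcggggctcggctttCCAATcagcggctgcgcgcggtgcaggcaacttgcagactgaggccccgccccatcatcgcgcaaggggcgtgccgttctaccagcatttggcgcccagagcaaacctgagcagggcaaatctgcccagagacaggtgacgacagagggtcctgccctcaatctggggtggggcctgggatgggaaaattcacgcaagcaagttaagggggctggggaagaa
Tapbp: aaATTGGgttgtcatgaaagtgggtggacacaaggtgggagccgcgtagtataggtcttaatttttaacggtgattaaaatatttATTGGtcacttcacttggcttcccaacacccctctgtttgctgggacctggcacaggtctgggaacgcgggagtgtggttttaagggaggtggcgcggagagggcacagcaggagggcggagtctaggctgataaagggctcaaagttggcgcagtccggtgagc

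H2-K1 and H2-D1 both held the NF-kB form with GAANNGAAA starting 21 bases further on, and 29 of the 30 bases from the start of the first to the end of the second were the same in both genes. The NF-kB form was present in 28 of 32851 promoter windows of this length, or 0.0852%, and GAANNGAAA in 6.31%. B2m held the full response element core, which 2.98% of windows hold, 139 bases before its start. H2-T23, whose window is not printed, held it 124 bases before its start. The windows of Tap1 and Tapbp held neither of these, but both held CCAAT (33.8% of windows) and GGGCGG, the Sp1 box (32.7%). These matches describe the letters only. Tap2 is named here without a sequence.

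The first comparison asked how the antigen presentation genes differed between the B cell line A20 and the AxJ lines with empty vector or hnRNP-H, the controls. Tapasin mRNA fell in A20 against the AxJ controls and was the member that passed the test. The light chain also read below all AxJ arrays in A20. So did 4 of the 9 heavy chain probe sets tested, while 4 lay inside the AxJ range and 1 above it. Over all probe sets 28.9% lay below the AxJ range and 26% above it, so such places are common. The main probe sets of both TAP subunits read higher. No light chain, heavy chain or TAP probe set passed. Of the 16 probe sets tested 1 fell and 0 rose, against 2.99% and 2.9% of all probe sets, or 5.89% in either direction. A count of 1 in 16 is near that share of the array as a whole. The median difference over the 16 was -0.36 on the log2 scale, against -0.04 over all 9107. Over all probe sets 264 rose and 272 fell; with arrays scaled to equal medians these were 364 and 192, and the median of all differences moved to 0.07.

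Tapbp probe set 100154_at read 635 with empty vector, 551 with hnRNP-H, 534 in clone B5, 630.3 in clone D6 and 202 in A20. The AxJ lines lay close together and A20 lay far below all 4. The difference was -1.52 on the log2(intensity + 6.55) scale (SE 0.32, A20 n = 1 against controls n = 2, 95% interval -2.24 to -0.79), a 2.86-fold lower level, with an adjusted p of 0.0288 in limma. A second probe set of the gene, 102689_at, read 92.2 with empty vector, 128 with hnRNP-H, 148 in clone B5, 123 in clone D6 and 51.4 in A20. It too was lowest in A20, by -0.99 (SE 0.41, limma adjusted p = 0.228). The third, 162104_f_at, read 157, 148, 137, 114 and 125 in the same order and placed A20 within the AxJ range, so the 3 probe sets disagree. The call at 100154_at was lost with median scaling (-1.22, adjusted p = 0.0770), without the intensity trend (0.144) and on leaving out the array of empty vector (0.0649), of B5 (0.101) or of D6 (0.100), while its log2 difference stayed between -1.62 and -1.22 in all settings tried.

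B2m, the light chain shared by all classical class I molecules, read 4072 with empty vector, 3872 with hnRNP-H, 3048 in clone B5, 2916 in clone D6 and 1998 in A20. All 4 AxJ lines lay above A20, and the controls lay above the hnRNP-F clones. The difference between A20 and the controls was -0.99 (SE 0.27, 95% interval -1.61 to -0.37) and missed the threshold, with a limma adjusted p of 0.0752. It passed in 1 of 15 other settings tried, with the AxJ arrays paired by Gapdh ratio as a block. That ratio was measured on these same arrays. Over all settings the B2m difference ran from -1.13 to -0.75.

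**Figure D1:**
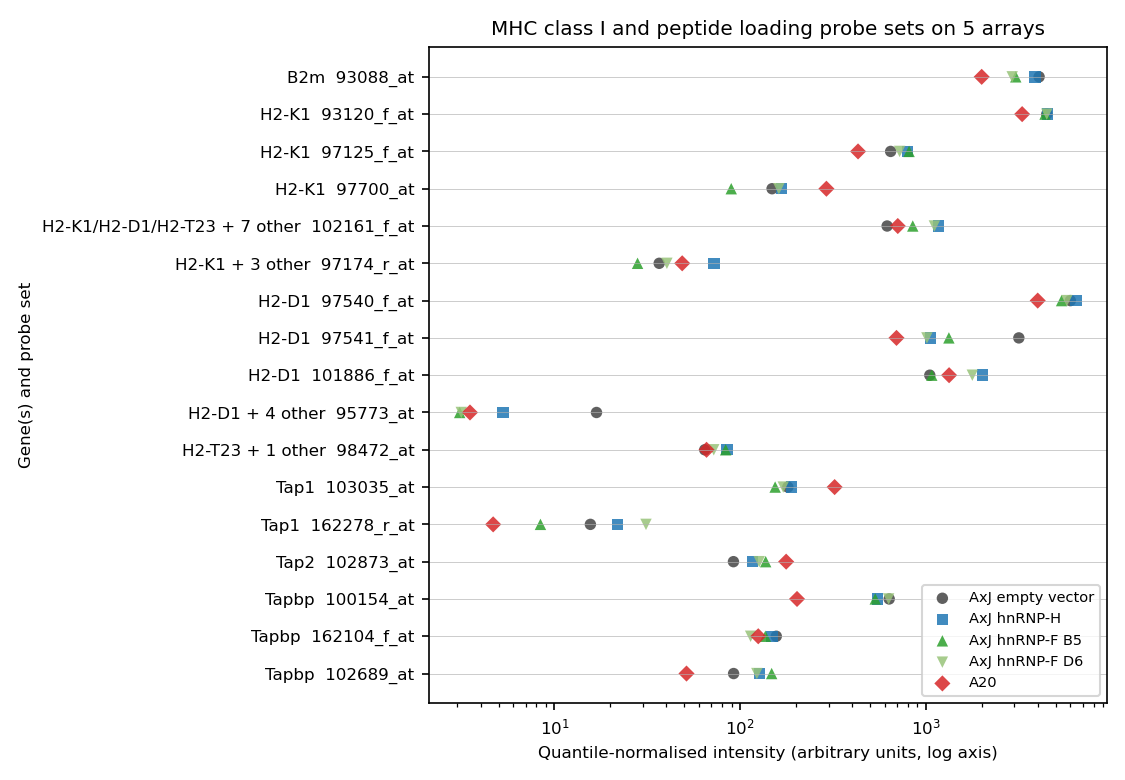
Quantile-normalised intensity in arbitrary units (log axis) of each member probe set, with 1 point per array and a row per probe set. A20 lies left of all 4 AxJ arrays for B2m and for Tapbp 100154_at and 102689_at, and right of all 4 for Tap1 103035_at and Tap2.

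The TAP subunits lay on the other side of the AxJ lines. Tap1 probe set 103035_at read 181 with empty vector, 189.6 with hnRNP-H, 154 in clone B5, 171 in clone D6 and 323 in A20. Tap2 probe set 102873_at read 92.0, 116, 137, 127 and 177 in the same order. For both genes A20 lay above every AxJ array. The differences from the controls, 0.78 for Tap1 (SE 0.34, limma adjusted p = 0.260) and 0.74 for Tap2 (SE 0.38, adjusted p = 0.342), did not pass. A dim second probe set of Tap1, 162278_r_at, read 15.6 with empty vector, 21.9 with hnRNP-H, 8.41 in clone B5, 31.1 in clone D6 and 4.68 in A20. It was lowest in A20 and so disagrees with the brighter one, with a difference of -1.16 (SE 0.81, limma adjusted p = 0.509). The suffix r marks a probe set for which the maker relaxed its rules of probe choice.

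The heavy chain genes H2-K1 and H2-D1 gave the brightest members, and of the 9 heavy chain probe sets tested, 8 differed below 0 and 0 passed. The 4 inside the AxJ range, all among these 8, differed by only -0.27 to -0.08. All 4 changed sign when the hnRNP-H array was left out. No share below 0 over all probe sets was computed, and the median difference of all was -0.04. Several of the 9 share listed genes, so they are not separate readings. H2-D1 probe set 97540_f_at read 5999 with empty vector, 6447 with hnRNP-H, 5381 in clone B5, 5742 in clone D6 and 4002 in A20. H2-K1 probe set 93120_f_at read 4478, 4526, 4382, 4478 and 3299 in the same order. In both, the AxJ lines lay close together and A20 was lowest, by -0.64 for H2-D1 (SE 0.27, limma adjusted p = 0.238) and by -0.45 for H2-K1 (SE 0.27, adjusted p = 0.427). Before quantile normalisation the AxJ lines spread more. Deposited values ran from 5490 to 7022 for this H2-D1 probe set, with A20 at 3452, and from 4252 to 5004 for this H2-K1 probe set, with A20 at 2899. The suffix f marks probes shared within a family of similar sequences, so the reading of such a probe set may sum over several class I genes, and 7 of the 17 member probe sets carry it.

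A second H2-K1 probe set of this kind, 97125_f_at, read 646 with empty vector, 795 with hnRNP-H, 812 in clone B5, 722 in clone D6 and 431 in A20, also lowest in A20 (-0.72, SE 0.31, limma adjusted p = 0.249). H2-K1 probe set 97700_at, which has no such suffix, read 149 with empty vector, 167 with hnRNP-H, 89.6 in clone B5, 162 in clone D6 and 291 in A20. It was highest in A20, by 0.86 (SE 0.43, limma adjusted p = 0.325), opposite to the family probe sets of the gene. Which part of the transcripts each one reads was not examined.

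The other 2 H2-D1 probe sets listed for this gene alone spread widely among the AxJ lines. Probe set 97541_f_at read 3167 with empty vector, 1058 with hnRNP-H, 1330.45 in clone B5, 1013 in clone D6 and 695 in A20. Empty vector stood far above the other 4, and the difference of A20 from the controls was -1.39 (SE 0.56, limma adjusted p = 0.217). It passed without hnRNP-H, which leaves empty vector as the lone control (-2.18, adjusted p = 0.0177), and with the Gapdh block (adjusted p = 0.0455). Probe set 101886_f_at read 1049.96 with empty vector, 2016 with hnRNP-H, 1076 in clone B5, 1779 in clone D6 and 1334 in A20. Here A20 lay inside the AxJ range (-0.13, SE 0.45, limma adjusted p = 0.926).

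Qa-1 was measured only by probe sets with several symbols. Probe set 98472_at, listed for H2-T23 and a T region pseudogene, read 64.5 with empty vector, 85.2 with hnRNP-H, 83.6 in clone B5, 72.1 in clone D6 and 65.9 in A20, with A20 inside the AxJ range (-0.16, SE 0.43, limma adjusted p = 0.898). Probe set 102161_f_at, listed for H2-K1, H2-D1, H2-T23 and 7 other symbols, read 619, 1169, 850.0, 1111 and 706 in the same order. Probe set 97174_r_at, listed for H2-K1 and 3 Q region genes, read 36.7, 72.2, 28.0, 40.3 and 48.8. A20 lay inside the AxJ range in both, with adjusted p of 0.800 and 0.968 in limma. Probe set 95773_at, listed for H2-D1 and 4 Q region genes, was not tested, since its highest level was 16.8, in empty vector.

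Counted without regard to the test, A20 lay outside the range of the 4 AxJ arrays for 11 of the 16 probe sets, 8 below and 3 above, or inside it for 5. Over all probe sets tested 54.9% lay outside, 28.9% below and 26% above, so a place outside the range is common here. An unadjusted p under 0.05 in limma was reached by 6 members, all lower in A20, against 19.3% of all probe sets in either direction. No share for the lower direction alone was computed. The 6 are probe sets of B2m, H2-K1, H2-D1 and Tapbp, and those of H2-K1 and H2-D1 carry the suffix f. The plasma cell markers fell and the B cell markers rose in the same comparison, and their part in these differences was not tested. Against only hnRNP-H and D6, the AxJ arrays of high Gapdh ratio, a setting added after the data had been seen, 4 members fell and 2 rose, among 1709 calls of 9107. That setting takes arrays of different constructs as replicates, picked because their Gapdh ratios were alike, so the spread may be understated. Those lower there were Tapbp 100154_at and 102689_at, H2-K1 97125_f_at and 102161_f_at. Those higher were Tap1 103035_at (by 0.82) and H2-K1 97700_at (by 0.80).

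**Figure D2:**
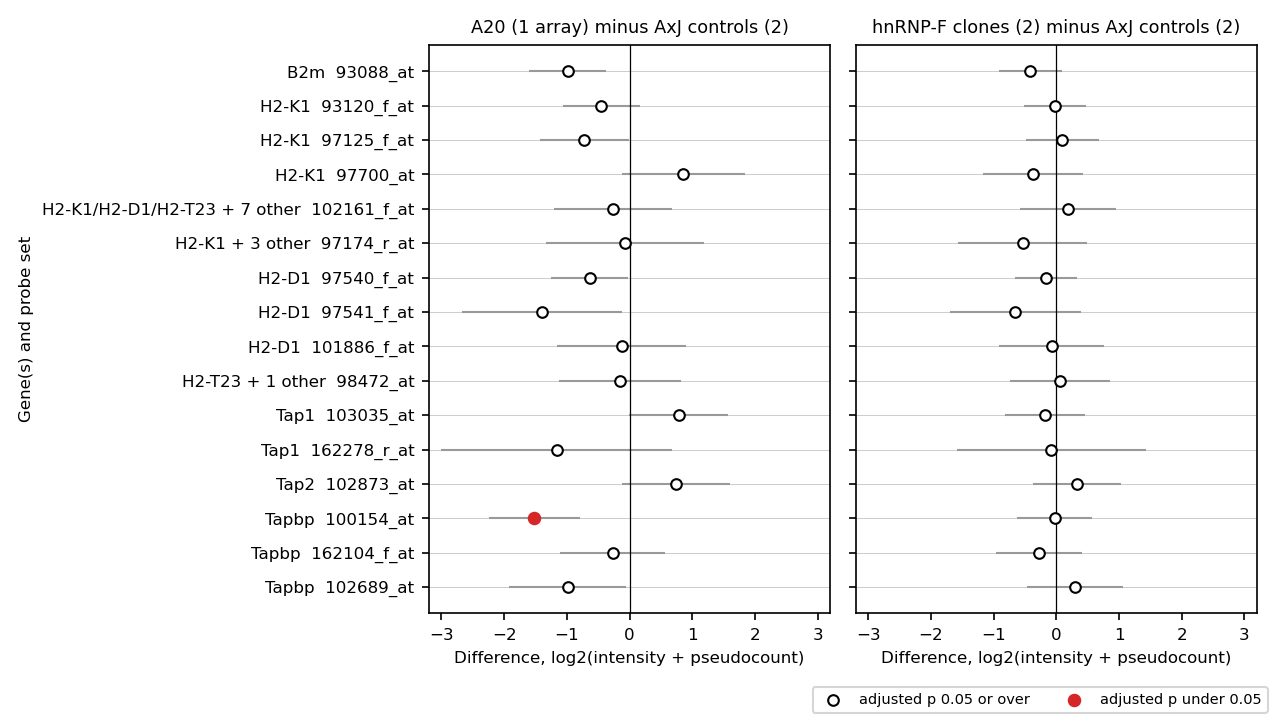
Difference of each member probe set on the log2(intensity + 6.55) scale, A20 minus AxJ controls on the left and hnRNP-F clones minus AxJ controls on the right, with 95% intervals from limma. Tapbp 100154_at, at -1.52 in A20, is the one filled point (adjusted p under 0.05).

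Ratios of 2 probe sets within an array do not depend on the scaling of that array. Only their change between arrays is read here, since the absolute size of a ratio depends on how well each probe set binds. Tap1 over Tapbp, from deposited intensities of 103035_at and 100154_at, was 0.283 with empty vector, 0.345 with hnRNP-H, 0.283 in clone B5, 0.275 in clone D6 and 1.60 in A20. The AxJ lines spanned 0.33 on the log2 scale, and A20 lay 2.44 above their mean. Tap2 over Tapbp was 0.150, 0.214, 0.252, 0.203 and 0.879 in the same order. A20 lay 2.13 above the AxJ mean, against an AxJ span of 0.75. These are the brightest probe sets of each gene, and the result depends on that choice. Of the 9 ratios of a Tap1 or Tap2 probe set to a Tapbp probe set, A20 lay above all AxJ arrays in 6, with 103035_at or 102873_at, and below all in 3, with the dim Tap1 162278_r_at. The 6 lay 0.77 to 2.44 above the AxJ mean, and the 3 lay between -2.41 and -1.05. With Tapbp 162104_f_at as the lower part, 103035_at and 102873_at lay 1.08 and 0.77 above. These ratios reuse the same few probe sets and are not separate readings. No share over all pairs of probe sets was computed. Of single probe sets, 54.9% put A20 outside the AxJ range. An exact test of 1 array against 4 could reach no p under 1 in 5.

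The ratio of B2m to the brightest heavy chain probe sets stayed within the AxJ range in A20. B2m over H2-D1 (97540_f_at) was 0.638 with empty vector, 0.625 with hnRNP-H, 0.530 in clone B5, 0.491 in clone D6 and 0.534 in A20. B2m over H2-K1 (93120_f_at) was 0.908, 0.852, 0.661, 0.634 and 0.636. In both ratios A20 read close to the hnRNP-F clones, and the controls read highest. Of the 6 ratios of B2m to a probe set listed for H2-K1 or H2-D1 alone, A20 lay inside the AxJ range in 4 and below it in 2. One of the latter was the ratio to H2-K1 97700_at, which was 30.7 with empty vector, 21.8 with hnRNP-H, 38.1 in clone B5, 16.3 in clone D6 and 5.996 in A20, a log2 difference from the AxJ mean of -2.08. The other was the ratio to H2-D1 101886_f_at, with a difference of -0.83. These ratios share the same B2m probe set, and no share over all pairs was computed for them either. Tap1 over Tap2 was 1.88 with empty vector, 1.61 with hnRNP-H, 1.13 in clone B5, 1.36 in clone D6 and 1.82 in A20, so that A20 lay within the AxJ range for the pair of transporter subunits.

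**Figure D3:**
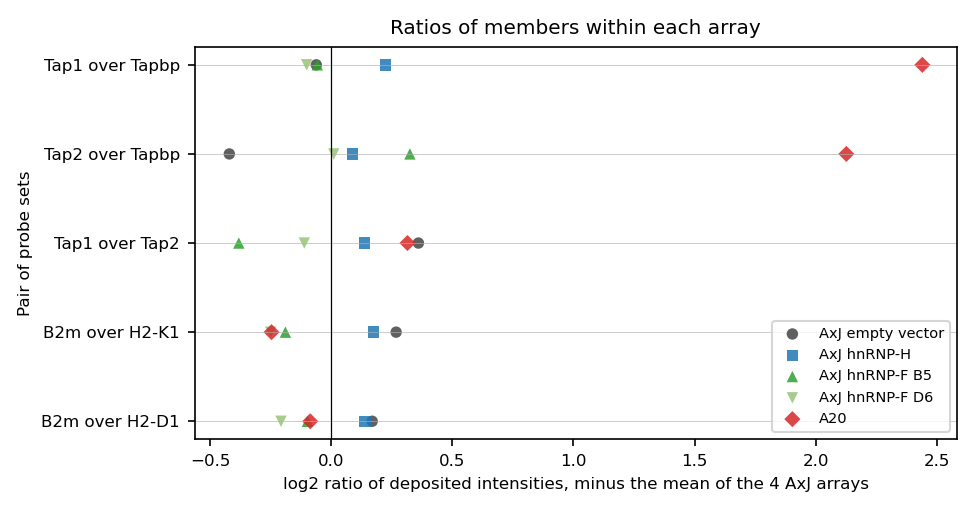
Ratios of deposited intensities within each array, on the log2 scale relative to the mean of the 4 AxJ arrays, with 1 point per array. Tap1 over Tapbp and Tap2 over Tapbp lie 2.44 and 2.13 above the AxJ mean in A20, while B2m over H2-D1 lies at -0.09.

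The second comparison asked whether overexpression of hnRNP-F changed these genes in the plasma cell line. No member passed the test between the hnRNP-F clones (n = 2) and the AxJ controls (n = 2). Of the 16 probe sets 0 were called in limma and 0 had an unadjusted p under 0.05, against 0.011% and 5.79% of all probe sets. Adjusted p-values ran from 0.790 to 0.990, and the median difference was -0.08, against 0.01 over all probe sets. The 95% intervals of the 16 lay between -1.70 (H2-D1 97541_f_at, where empty vector stands apart) and 1.42 (the dim Tap1 162278_r_at) at their outermost. For a given probe set, the data are compatible with any change within its interval.

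B2m, whose levels are given above, read lower in each clone than in either control, by -0.41 (SE 0.22, limma adjusted p = 0.790). Tapbp 100154_at differed by -0.03 (SE 0.26, adjusted p = 0.990) and H2-K1 93120_f_at by -0.02 (SE 0.22, adjusted p = 0.990). For these 2 probe sets B5 lay below both controls and D6 did not. The clones lay below both controls for 4 probe sets (B2m, H2-D1 97540_f_at, Tap1 103035_at and Tapbp 162104_f_at) and above both for Tap2, which differed by 0.33. Over all probe sets 19.4% lay below and 18.2% above in this way, so 5 of 16 is near the 37.6% found in all. An exact test of 2 arrays against 2 could reach no p under 1 in 3.

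Within AxJ several heavy chain probe sets split by the Gapdh ratio of the arrays. The pair of empty vector and B5 was separated from the pair of hnRNP-H and D6 for 6 of the 16 member probe sets, and over all probe sets for 36.1%, so the count is near that of the array as a whole. Of these 6, 5 were among the 9 heavy chain probe sets tested. H2-D1 101886_f_at read 1049.96 and 1076 in the low-ratio pair against 2016 and 1779 in the high-ratio pair. H2-D1 97541_f_at ran the other way, with 3167 and 1330.45 against 1058 and 1013. The part of RNA integrity in these differences was not tested.

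**Figure D4:**
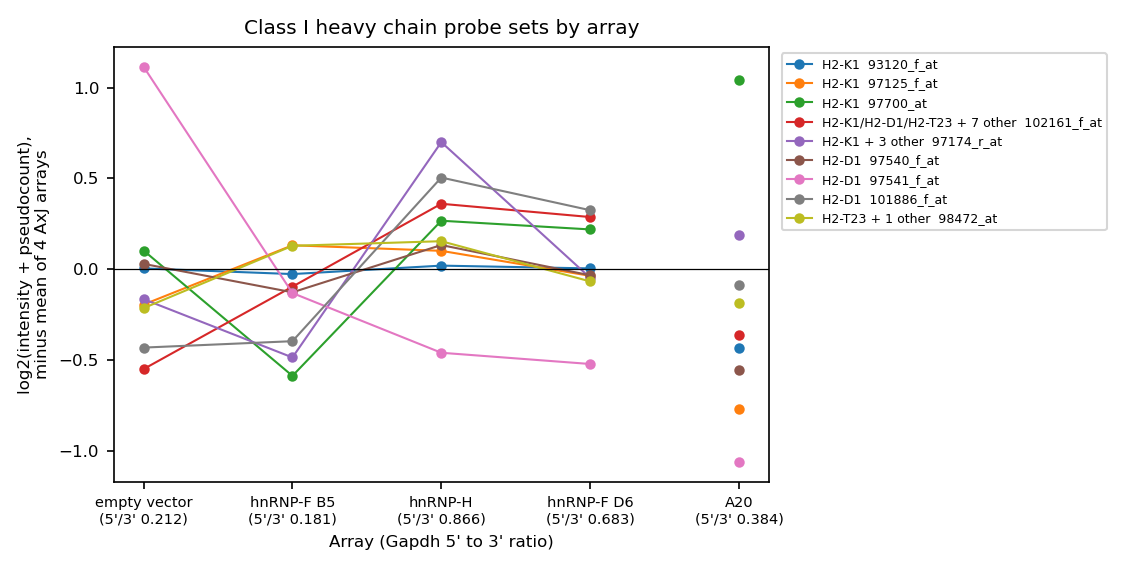
Heavy chain probe sets on the log2(intensity + 6.55) scale relative to the mean of the 4 AxJ arrays, with the AxJ arrays ordered so that those of low Gapdh 5' to 3' ratio come first. The brightest probe sets, H2-K1 93120_f_at and H2-D1 97540_f_at, stay near 0 in all AxJ arrays, and H2-D1 97541_f_at stands highest in empty vector.

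The controls were also set against each other, and the subclones likewise, each with 1 array a side and so with values only. Of the members 1 differed at least 2-fold between hnRNP-H and empty vector, against 18.1% of all probe sets. This was H2-D1 97541_f_at, lower in hnRNP-H by -1.58 on the log2 scale. Between D6 and B5 it was 1, against 12% of all probe sets, namely Tap1 162278_r_at with 31.1 in D6 and 8.41 in B5. The range over the 4 AxJ arrays had a median of 0.51 log2 units over the members, from 0.05 for H2-K1 93120_f_at to 1.64 for H2-D1 97541_f_at, against 0.86 over all probe sets. The 0.05 is narrowed by quantile normalisation, since the deposited values of 93120_f_at ran from 4252 in D6 to 5004 in B5.

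The rest of the class I pathway was read from lists, 1 probe set a gene, the brightest one. Among chaperones and related proteins of the ER, 3 of 6 fell in A20 and 0 rose, with a median of -1.16. Of 6638 genes on the same basis, 3.39% fell and 3.22% rose. The trimming enzymes Erap1 and Lnpep of this list had no probe set listed for them alone and were not tested, nor was Tapbpl. Hspa5 (BiP), the abundant ER chaperone that binds unfolded chains, read 4165 with empty vector, 4923 with hnRNP-H, 4072 in clone B5, 3872 in clone D6 and 945 in A20. Its log2 level fell by 2.25 (SE 0.28, adjusted p = 0.00332 in limma). Pdia4, an ER disulfide isomerase, read 476, 401, 569, 579 and 65.7 in the same order and fell by 2.62 (SE 0.32, adjusted p = 0.00332). Bcap31, an ER membrane protein that helps newly made membrane proteins leave the ER, read 966, 1469, 872, 1293 and 206 and fell by 2.49 (SE 0.38, adjusted p = 0.00826). All 3 lay far below every AxJ array in A20. These genes serve secretory proteins at large as well as class I. Canx (calnexin), which binds the new heavy chain, and Pdia3 (ERp57), which is linked to tapasin in the loading complex, differed by 0.04 and -0.06 and did not pass. Uggt1, the remaining gene tested in this list, differed by 0.81 and did not pass. Calr (calreticulin), the lectin chaperone of the loading complex, lay below the filter and was not tested.

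Of 13 other class I heavy chain and class I-like genes 0 rose and 0 fell, with a median of -0.37. H2-K2, a class I relative of H2-K1 whose probe set again reads a family, was at 3574 with empty vector, 3495 with hnRNP-H, 3624 in clone B5, 3574 in clone D6 and 2003 in A20. It was lowest in A20 by -0.82 (SE 0.27, limma adjusted p = 0.131), as the brightest member probe sets were. H2-M10.1 differed by -0.84 at one probe set (adjusted p = 0.238 in limma) and by -0.14 at the other.

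Of the 8 cytosolic peptidases, which trim peptides before transport, 0 rose and 0 fell, with a median of -0.02. Npepps differed by 0.77 (limma adjusted p = 0.240) and Ide by -0.68 (adjusted p = 0.327), and a second probe set of Ide by 0.22. Of 16 regulators of class I transcription 1 rose and 0 fell, with a median of 0.17. This was Irf8, a transcription factor of B cells and myeloid cells, which read 24.8 with empty vector, 24.8 with hnRNP-H, 21.7 in clone B5, 15.1 in clone D6 and 220 in A20. It was dim in all AxJ lines and rose in A20 by 2.85 (SE 0.51, limma adjusted p = 0.0173). No gene of the 4 lists passed between the hnRNP-F clones and the controls, where the list medians were 0.02 for the class I-like genes, 0.10 for the ER chaperones, -0.21 for the peptidases and 0.06 for the regulators.

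**Figure D5:**
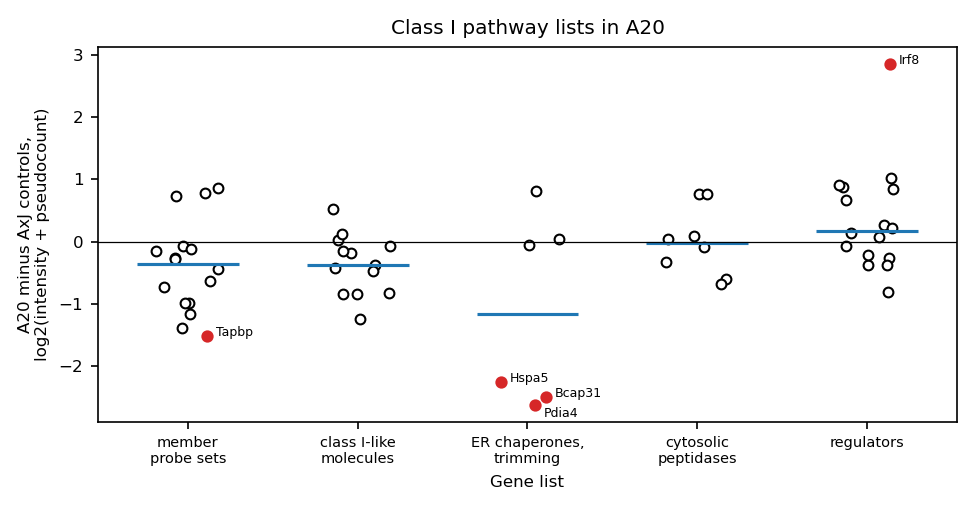
Difference of A20 from the AxJ controls on the log2(intensity + 6.55) scale for the member probe sets and for each gene of the 4 pathway lists, with the median of each list as a bar. Filled points passed an adjusted p of 0.05 and are Tapbp, Hspa5, Pdia4, Bcap31 and Irf8.

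Of the 7 genes, 6 lie on chromosome 17, in the H2 complex, and B2m lies on chromosome 2. By the order of genes in RefSeq, 79 other genes with a tested probe set lie between Tapbp and H2-T23. In A20 9 of them rose and 1 fell, against 3.22% and 3.39% of 6638 genes. The stretch was chosen after values had been seen, so this count has no test. Those that rose were the class II genes H2-Aa, H2-Ab1, H2-Ea, H2-DMa and H2-DMb1, the cytokine genes Ltb and Tnf, the tubulin gene Tubb5 and Psmb8, an immunoproteasome subunit whose gene lies between Tap1 and Tap2, and Ier3 fell. Several of the class II genes are among the B cell markers above. The log2 level of Psmb8 rose by 1.81 (SE 0.33, adjusted p = 0.0188 in limma), while the differences of its neighbours Tap1 and Tap2, 0.78 and 0.74, did not pass.

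The genes whose values over the 5 arrays were most like those of a member were found by Euclidean distance between centred log2 values. This was done for the members that spanned over 1 log2 unit. For Tapbp, which spanned 1.62, these were Bphl (distance 0.12), Edem1 (0.15) and Alg2 (0.18). For B2m, with a span of 1.02, they were Paip2b (0.13), Naa30 (0.14) and Tcl1b1 (0.15). For Tap1, with a span of 1.03, they were Scd2 (0.11), Ilf2 (0.13) and Gar1 (0.15). Over 5 arrays, most of the span in each case is the step from AxJ to A20. Only the brightest probe set listed for 1 gene alone was used for each member, and those of H2-K1, H2-D1 and Tap2 spanned less than the minimum.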

How the data were processed

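Polyadenylated RNA of 5 cultures was hybridised to 1 array each. The deposited values are linear intensities, 1 per probe set, and the authors had scaled each array to a trimmed mean near 150, as the deposited values show. Software and background step: not given in the sources used here. Detection calls were not used. Gene symbols follow the 2016 array annotation, brought up to date by gene identifier. The members and lists were chosen with earlier results of these data known.

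After 66 control probe sets were left out, arrays were quantile normalised, because the A20 median lay -11.6 percent from the mean of the medians (limit 10 percent). Levels are quantile-normalised intensities unless called deposited. Quantile normalisation gives the same value to a probe set of the same rank on several arrays and so hides its spread. Differences are on the log2(intensity + 6.55) scale, where 6.55 is the 20th percentile; changes of dim probe sets are understated there. The filter asked for a highest value over 21.8, the 40th percentile, which left 9107 probe sets. limma 3.58.1 in R 4.3.3 (lmFit, eBayes with trend) was fitted over all 5 arrays with 3 coefficients (hnRNP-F clones, AxJ controls, A20). There were 2 residual degrees of freedom and a prior of 6.46. Two-sided p-values were adjusted by Benjamini-Hochberg over all 9107 and called under 0.05. For A20, with its 1 array, the spread of the AxJ arrays was assumed. No separate cultures are described, so the p-values reflect the spread among these arrays alone, which may be technical, and their number limits the precision. The procedure was tested on simulated data.

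Named were all member probe sets, and from each pathway list up to 4 called genes or, where none was called, the 2 of largest moderated statistic. Canx, Pdia3, Uggt1, Psmb8 and the genes near the members were named after their values were seen. The alternatives covered the scaling, pseudocount, filter, trend, grouping, 1 probe set per gene, a Gapdh block and each AxJ array left out. Other promoter motifs searched were the cyclic AMP element TGACGT (in 6.47 percent of windows), its shorter form TGACG (17.8 percent, added later), an NF-kB form with any base in the middle (0.289 percent) and the TATAAA box (12.4 percent).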

Additional observations from a re-analysis of the deposited data

How the results depend on the processing

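The Tapbp difference at 100154_at kept its direction in every setting tried, from -1.62 to -1.22, with limma adjusted p from 0.00121 to 0.144. Members lower in A20 past the threshold numbered 0 with median scaling and without the trend, 3 with the Gapdh block (Tapbp, B2m and H2-D1 97541_f_at), 4 (with 2 higher) against hnRNP-H and D6 only, a setting added after the data had been seen, and 0 to 2 with an AxJ array left out, against 1. Over all probe sets, calls in either direction numbered 311 without the filter, 145 without the trend and 1709 against hnRNP-H and D6 only. They numbered 245 to 667 with an array left out, against 536. Between hnRNP-F clones and controls, 0 were called without the filter and without the trend and 0 to 3 with an array left out, against 1.

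Some small differences changed sign. For A20 these were 101886_f_at (0.12) and 102161_f_at (0.025) with median scaling and 97174_r_at (0.19) against all 4 AxJ arrays as 1 group. For hnRNP-F it was H2-K1 93120_f_at, with 0.00089 as deposited and 0.016 with median scaling. With an array left out, the A20 differences ran from -0.72 to 0.19 for 102161_f_at, -0.59 to 0.34 for 101886_f_at, -0.51 to 0.36 for 97174_r_at and -0.34 to 0.029 for 98472_at. The hnRNP-F differences ran from -0.26 to 0.65 for 102161_f_at, -0.54 to 0.40 for 101886_f_at, -1.44 to 0.13 for 97541_f_at, -0.054 to 0.24 for 97125_f_at, -0.77 to 0.034 for 97700_at, -0.12 to 0.25 for 98472_at, -0.75 to 0.58 for 162278_r_at and -0.15 to 0.091 for 100154_at. The causes were not tested. No paired analysis was possible because the groups compared share fewer than 2 replicate numbers. The Gapdh block groups arrays by a measured ratio, not by a pairing in the labels. Signal over background cannot be judged without detection calls, so dim probe sets are the least certain.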
